A study of Mus musculus with 12 samples.

Results

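The bile acid uptake and Fxr genes are 8 genes taken by symbol from the 53715 gene identifiers of the deposited table: Slc10a2, Fabp6, Slc51a, Slc51b, Fgf15, Nr1h4, Nr0b2 and Abcc2. All 8 were found, each as 1 protein-coding gene, and 7 of the 8 were among the 16558 genes with enough counts to be tested. Nr0b2 was not. RNA-seq was performed on mucosa from the ileum or the colon of C57BL/6J males aged 8 weeks, with 3 libraries in each of 4 groups. The control libraries came from mice given as genotype Slc39a8-fl/fl, and the Slc39a8-IEC KO (KO) libraries from mice given as Slc39a8-fl/fl:Villin-Cre. By these genotypes the floxed allele of Slc39a8, a manganese transporter gene, was shared by all 12 libraries. The Cre was then carried only by the KO mice. For the study in general, the paper describes its controls as mixed, with floxed, wild-type and Villin-Cre-only mice. Villin-Cre acts in the epithelium of small and large intestine, and Slc39a8 of other mucosal cells is left intact. Each library was made from 1 mouse, and whether an ileal and a colonic library of the same number came from the same mouse was not stated in the sources used here.

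Bile acids are made from cholesterol in the liver, secreted into the gut and recovered mainly in the ileum. The ileal enterocyte takes them up from the lumen through Slc10a2 (Asbt), carries them in the cytosol on Fabp6 (ileal bile acid-binding protein) and passes them to the blood through the paired subunits Slc51a and Slc51b (Ostα and Ostβ), while Abcc2 (Mrp2) is an efflux pump for conjugated compounds. Inside the cell bile acids activate the nuclear receptor Fxr, the product of Nr1h4, whose classical targets include Fabp6, Slc51a, Slc51b, the hormone Fgf15 and the corepressor gene Nr0b2 (Shp), and Fgf15 represses bile acid synthesis in the liver.

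The libraries held 16749138 to 27903083 counts. Slc39a8 had 94 to 155 counts in control and 59 to 73 in KO ileum, and 407 to 427 in control and 156 to 222 in KO colon, without overlap in either tissue. The small intestine markers Rbp2, Apoa4, Lyz1 and Mmp7 summed to 2282 to 6843 counts per 1000000 (CPM) in ileum and 29.4 to 42.4 in colon, and the colon markers Car1 and Aqp8 were found in all 6 colonic libraries, whereas Hoxb13 was at or near 0 in all 12. The proximal markers Gata4, Lct, Cybrd1 and Fabp1 summed to 7.62 to 13.0 CPM in ileum. Of 4 liver markers, the summed level did not pass 5.86 CPM in any library. Several libraries stood apart. Ileum KO replicate 2 had 67342 counts of Car1 (2632 CPM), against at most 144 CPM in the other 5 ileal libraries and 14884 to 27124 CPM in colon. Ileum control replicate 3 and ileum KO replicate 1 held 34.2 and 20.2 CPM of 6 smooth muscle markers in sum and 34.0 and 32.3 CPM of 4 stromal markers, whereas the other 4 ileal libraries held 1814 to 2643 and 243 to 484 CPM. Colon KO replicate 3 had 655 CPM of 3 plasma cell markers against 219 to 300 CPM in the other 5 colonic libraries.

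The promoters of Slc10a2, Fabp6, Slc51a and Slc51b are shown because these genes were all lower in colon than in ileum and because their products form the route from lumen to blood. Each is the 250 bases before the start site in RefSeq (GRCm38.p6), printed on the gene's strand, here the minus strand for all of them. Of these genes, the RefSeq start differs from that of the GENCODE gene for Slc10a2, Fabp6 and Slc51b. The windows of Slc10a2 and Slc51b lie partly inside the GENCODE gene. The regions are chr8:5105288-5105537 for Slc10a2, chr11:43601563-43601812 for Fabp6, chr16:32487880-32488129 for Slc51a and chr9:65422774-65423023 for Slc51b. Capitals mark matches to a searched motif.
Slc10a2: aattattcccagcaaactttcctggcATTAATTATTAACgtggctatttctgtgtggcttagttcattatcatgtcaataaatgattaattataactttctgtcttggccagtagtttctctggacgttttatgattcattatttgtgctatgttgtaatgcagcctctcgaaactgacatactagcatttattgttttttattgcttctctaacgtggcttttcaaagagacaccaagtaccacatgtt
Fabp6: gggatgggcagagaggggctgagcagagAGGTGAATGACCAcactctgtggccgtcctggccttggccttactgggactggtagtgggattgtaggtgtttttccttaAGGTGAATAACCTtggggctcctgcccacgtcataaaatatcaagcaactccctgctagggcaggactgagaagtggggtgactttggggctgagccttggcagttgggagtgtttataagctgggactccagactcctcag
Slc51a: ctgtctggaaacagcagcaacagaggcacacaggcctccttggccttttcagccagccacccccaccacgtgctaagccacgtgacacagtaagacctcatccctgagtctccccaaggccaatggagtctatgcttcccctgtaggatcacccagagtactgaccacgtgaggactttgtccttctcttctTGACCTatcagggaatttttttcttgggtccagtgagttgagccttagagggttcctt
Slc51b: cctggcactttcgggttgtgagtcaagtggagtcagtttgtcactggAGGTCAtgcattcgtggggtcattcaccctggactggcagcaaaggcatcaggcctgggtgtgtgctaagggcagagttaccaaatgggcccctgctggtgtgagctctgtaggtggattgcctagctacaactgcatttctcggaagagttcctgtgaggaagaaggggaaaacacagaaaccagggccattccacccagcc
Both strands were searched for 4 motifs. These were the inverted repeat IR-1 bound by Fxr with Rxr (AGGTCA, any base, TGACCT, up to 2 mismatches), the nuclear receptor core motif AGGTCA (no mismatch), the Hnf1 motif (GTTAAT, any base, ATTAAC, up to 2 mismatches) and the direct repeat DR-1 (AGGTCA, any base, AGGTCA, up to 2 mismatches). The core motif lies within both repeats, so that an exact copy can be counted with either. Of 32851 promoters of the same length, 0.959% held an IR-1 match, 14% the core motif, 1.24% an Hnf1 match and 3.24% a DR-1 match. Fabp6 had 2 IR-1 matches, at -222 to -210 and -142 to -130 from the start site, each with 2 mismatches. Slc10a2 had 1 Hnf1 match with 1 mismatch at -224 to -212. Slc51b and Slc51a each had 1 core motif, at -203 to -198 and, on the opposite strand, at -58 to -53. Of the other members with a RefSeq promoter, Nr1h4 held a core motif inside a DR-1 match and an Hnf1 match, Abcc2 a core motif and an Hnf1 match, and Nr0b2 none of the 4. For Nr1h4 and Abcc2 the RefSeq start also differs from that of the GENCODE gene. The Nr1h4 window (chr10:89506659-89506908) lies wholly inside the GENCODE gene, and the Abcc2 window partly. The Fgf15 promoter was not analysed here. These matches describe letters in a window and were not tested as binding sites.

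In control ileum the order of the members, with counts set per length, was Fabp6, Slc51b, Slc10a2, Slc51a, Nr1h4, Abcc2, Fgf15 and Nr0b2. On the scale of CPM per kilobase of exon, Fabp6 reached 9154 ± 2074 (SD, n = 3), Slc51b 961 ± 313, Slc10a2 591 ± 177, Slc51a 310.1 ± 24.7, Nr1h4 151 ± 67.5, Abcc2 20.6 ± 7.77, Fgf15 2.08 ± 0.448 and Nr0b2 0.118 ± 0.0693. Slc51b and Slc10a2 overlapped in range across mice, but within each of the 6 ileal libraries Slc51b was the higher of the pair, by 1.14 to 2.12 times per kilobase. By mean CPM, Fabp6 ranked 20 of 16558 genes in control ileum and 8 in KO ileum, Slc10a2 48 and 61, Slc51a 135 and 121, and Slc51b 194 and 237, whereas Fgf15 ranked 9760 in control ileum. In control colon the order per kilobase was Slc10a2 (202 ± 15.9), Slc51b (189.6 ± 40.0), Nr1h4 (90.5 ± 19.3), Slc51a (45.7 ± 9.17), Fabp6 (13.0 ± 0.852) and Abcc2 (1.81 ± 0.427), and Slc10a2 and Slc51b did not differ beyond their spread. Slc10a2 ranked 112 in control colon, whereas Fabp6 ranked 9910.

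**Figure D1:**
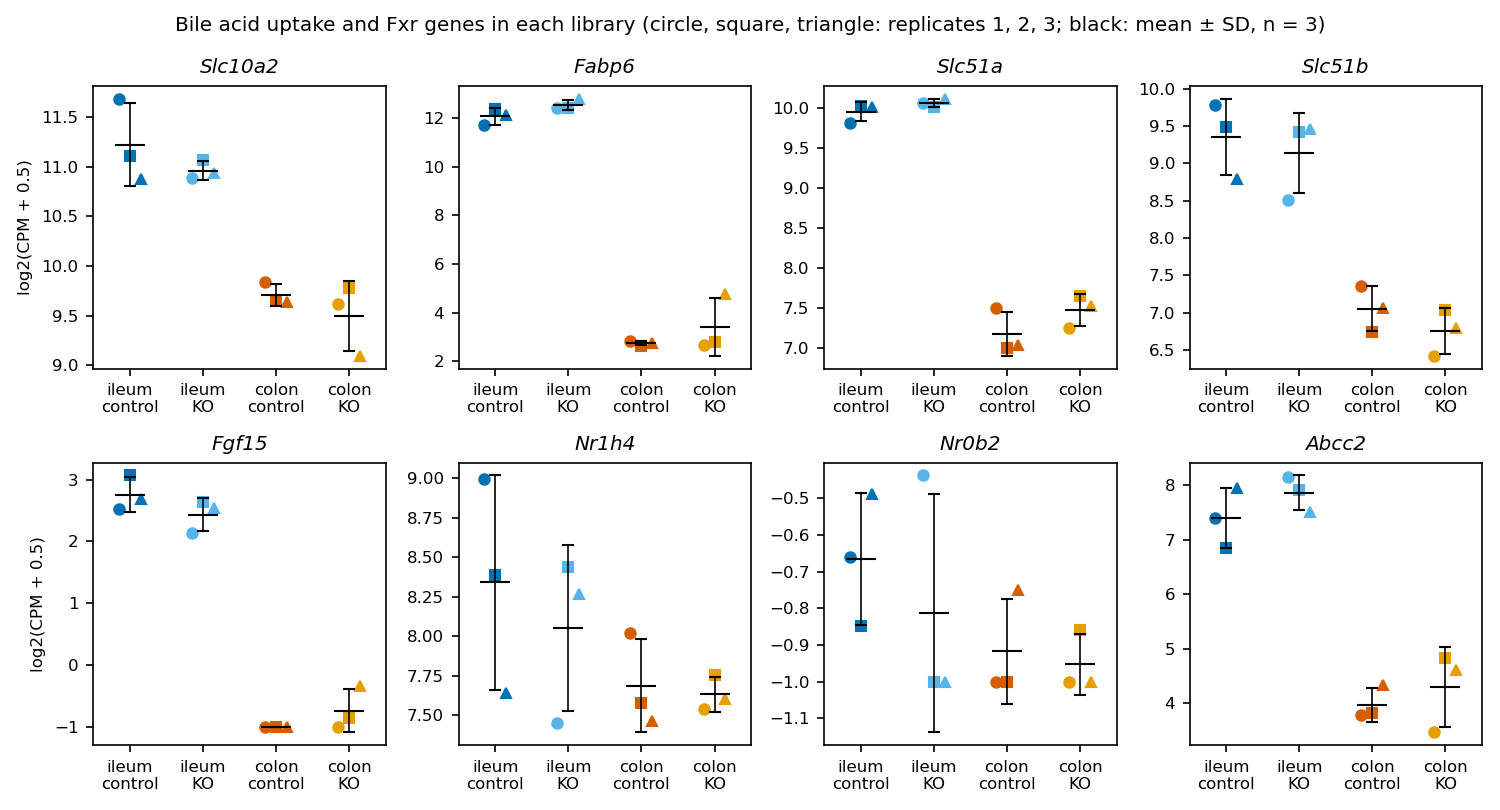
Level of each gene in each library, as log2(CPM + 0.5), in the 4 groups. Symbols are replicates 1 to 3 and black marks give the mean and SD of the 3 libraries. All colonic libraries lie below all ileal libraries for Slc10a2, Fabp6, Slc51a, Slc51b, Fgf15 and Abcc2, whereas those of Nr1h4 and Nr0b2 overlap.

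The comparison of colon with ileum asked how the levels of the members differ along the gut, once in control and once in KO mice, which share no library. Of the 7 members tested, 6 were called lower in colon in control mice, where 19.6% of all genes were called lower and 35.9% in either direction (edgeR, adjusted p under 0.1). The same 6 were called lower in KO mice, where 20% of all genes were lower and 37.1% were called either way. Among the 6, Fgf15 had enough counts to be tested only through its ileal libraries. Its call was thus largely set in advance and adds no support. The median log2 fold change of the 7 was -2.76 in control and -2.58 in KO mice, against 0.02 and 0.01 over all genes. The control median was unchanged with Fgf15 set at a floor of 3 counts in control colon. With library size as the only scaling, 12.7% of all genes were called lower in control and 11.5% in KO mice, and all 6 members stayed below 0. In bulk mucosa, fewer enterocytes and less RNA per enterocyte cannot be told apart. The 6 epithelium markers summed to 18919 to 25299 CPM in ileum and 10761 to 12407 CPM in colon, so that epithelial transcripts moved with the tissue and their part in these differences cannot be told apart from it.

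**Figure D2:**
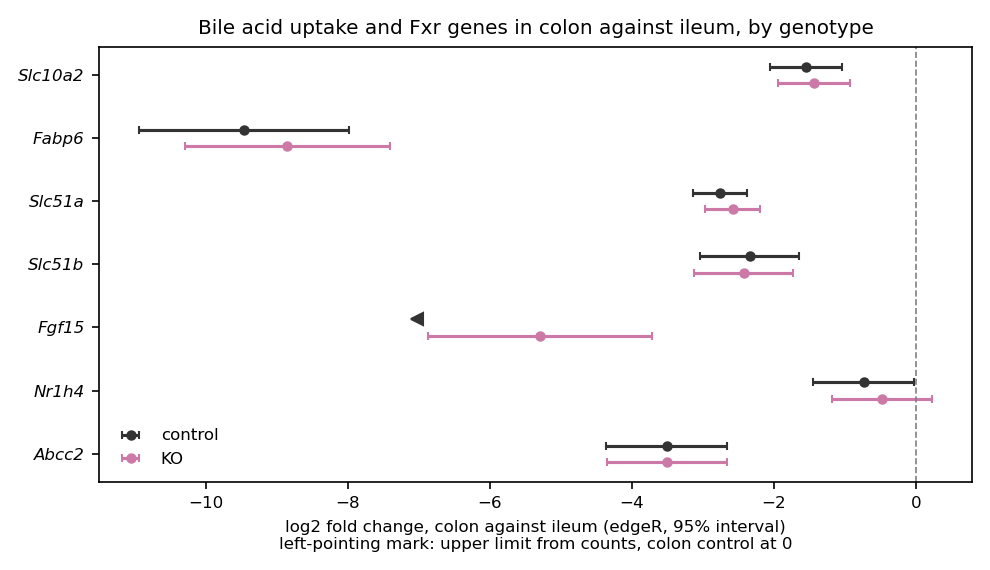
Log2 fold change of each tested gene in colon against ileum with its 95% interval (edgeR), in control (black) and KO (pink) mice. The triangle is the upper limit for Fgf15 in control mice, whose colonic libraries had 0 counts. The points of Fabp6 lie at -9.46 and -8.85, and the KO interval of Nr1h4 crosses 0.

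Slc10a2 (chromosome 8, 5083219 to 5105351, minus strand), which brings bile acids in from the lumen, showed a modest difference between tissues. Its levels were 3282, 2197 and 1883 CPM in control ileum and 1884, 2137 and 1955 CPM in KO ileum. In colon they were 916, 809 and 795 CPM in control and 783, 875 and 547 CPM in KO mice. The groups did not overlap between tissues, and the lowest ileal library was still above the highest colonic one. Slc10a2 was 2.92-fold higher in ileum than in colon in control (log2 fold change of colon against ileum -1.55 ± 0.23 SE, edgeR adjusted p = 0.000472) and 2.71-fold higher in KO mice (-1.44 ± 0.23, edgeR adjusted p = 0.000773). With the mean log2 level of the epithelium markers as a term in the fit, the values were -0.73 (edgeR adjusted p = 0.539) and -0.54 (edgeR adjusted p = 0.692), and the call was lost. That mean ranged from 11.34 to 11.75 in ileum and from 10.34 to 10.62 in colon.

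Fabp6 (chromosome 11, 43596049 to 43601540, minus strand), the cytosolic carrier, was abundant in ileum and scarce in colon. Its levels were 3362, 5346 and 4447 CPM in control ileum and 5514, 5467 and 7109.7 CPM in KO ileum. In colon they were 6.55, 5.76 and 6.31 CPM in control mice and 5.89, 6.37 and 26.8 CPM in KO mice, so that 5 of 6 colonic libraries sat close together and colon KO replicate 3 sat above them. Fabp6 was 706-fold higher in ileum in control (log2 fold change -9.46 ± 0.68, edgeR adjusted p = 1.77e-06) and 461-fold in KO mice (-8.85 ± 0.66, edgeR adjusted p = 2.55e-06). Without colon KO replicate 3 the KO value was -9.94 (edgeR adjusted p = 2.77e-07), and without ileum KO replicate 2 it was -8.92 (edgeR adjusted p = 1.1e-05).

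Slc51a (chromosome 16, 32474504 to 32487879, minus strand) encodes one subunit of the basolateral exporter. It was the steadiest member in ileum, with 901, 1044 and 1030.5 CPM in control and 1069, 1031 and 1107 CPM in KO mice, a coefficient of variation of 6.75% over the 6 libraries. In colon it had 180.0, 128 and 131 CPM in control and 152, 201 and 183 CPM in KO mice. The difference was 6.79-fold in control (-2.76 ± 0.18, edgeR adjusted p = 8.21e-07) and 5.99-fold in KO mice (-2.58 ± 0.17, edgeR adjusted p = 1.27e-06). Slc51b (chromosome 9, 65412714 to 65422955, minus strand), the partner subunit, had 883, 717 and 443 CPM in control ileum and 365, 683 and 707 CPM in KO ileum. Its colonic levels were 163, 107 and 134 CPM in control and 85.3, 131 and 110.1 CPM in KO mice. The difference was 5.07-fold in control (-2.34 ± 0.32, edgeR adjusted p = 0.000231) and 5.38-fold in KO mice (-2.43 ± 0.32, edgeR adjusted p = 0.000184), and with the epithelium term it turned to 0.30 and 0.56 (edgeR adjusted p = 0.81 and 0.678). Slc51a overlaps Pcyt1a and Slc51b overlaps Rasl12 on the opposite strand, with 1326 to 3289 and 33 to 198 counts in these libraries, and whether reads were counted by strand was not given in the sources used here.

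Abcc2 (chromosome 19, 43782192 to 43840740, plus strand), the apical efflux pump, had 167, 114 and 246 CPM in control ileum and 285, 240.0 and 183 CPM in KO ileum. In colon it had 13.2, 13.5 and 19.7 CPM in control and 10.6, 27.8 and 23.8 CPM in KO mice, far below the lowest ileal library. It was 11.4-fold higher in ileum in both genotypes (-3.51 ± 0.39 in each, edgeR adjusted p = 5.28e-05 in control and 5.3e-05 in KO). With the epithelium term the values were -5.14 and -5.43, and both calls were kept.

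Nr1h4 (chromosome 10, 89454234 to 89533585, minus strand), the gene of Fxr itself, did not pass the threshold in either genotype. Its levels were 509, 334 and 199 CPM in control ileum and 175, 347 and 307 CPM in KO ileum, and in colon 259, 191 and 176 CPM in control and 186, 215 and 194 CPM in KO mice. The tissues overlapped, and the lowest ileal libraries, control replicate 3 at 199 and KO replicate 1 at 175 CPM, lay near the colonic levels. The log2 fold change of colon against ileum was -0.74 ± 0.32 in control (95% interval -1.45 to -0.03, edgeR adjusted p = 0.114) and -0.48 ± 0.32 in KO mice (-1.19 to 0.23, edgeR adjusted p = 0.295). Those 2 libraries are also the ileal libraries low in smooth muscle markers, and on that ground a fit left them out. Without them the value was -1.04 (edgeR adjusted p = 0.00226) and -0.71 (edgeR adjusted p = 0.0189), and Nr1h4 was called lower in colon in both. Leaving out the lowest ileal levels of Nr1h4 must widen this difference, so these calls are no independent support. In control mice, leaving out ileum control replicate 3 alone gave -1.03 (edgeR adjusted p = 0.0166), and leaving out ileum KO replicate 1 alone, which enters through the shared spread, gave -0.74 (edgeR adjusted p = 0.0702). With the epithelium term the sign turned, to 1.80 and 2.32, with edgeR adjusted p of 0.222 and 0.167.

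Of the genes Fxr is known to induce, Fgf15 (chromosome 7, 144896531 to 144900953, plus strand), the hormone sent to the liver, was scarce but confined to ileum apart from 8 counts. It had 79, 142 and 139 counts in control ileum and 65, 146 and 112 in KO ileum, equal to 5.26, 7.89 and 5.91 CPM and 3.88, 5.71 and 5.31 CPM. In colon it had 0 counts in each of the 3 control libraries and 0, 1 and 7 counts in the KO libraries. Over the groups, control ileum held 6.36 CPM (exact 95% Poisson interval for counting error 5.72 to 7.06). That was 131-fold above a floor of 3 counts over the control colon group. The exact 95% Poisson upper limit for control colon was 0.0599 CPM, which is above that floor of 0.0487 CPM. In KO mice the log2 fold change of colon against ileum was -5.30 ± 0.70 (edgeR adjusted p = 0.000456), and -7.32 without colon KO replicate 3, which held 7 of the 8 colonic counts (edgeR adjusted p = 0.000172). With the epithelium term it was -4.15 and the call was lost (edgeR adjusted p = 0.244). Nr0b2 (chromosome 4, 133553376 to 133556536, plus strand) had 2, 1 and 5 counts in control ileum, 4, 0 and 0 in KO ileum, 0, 0 and 2 in control colon and 0, 1 and 0 in KO colon. At this depth no difference in Nr0b2 was detectable, and no fold is given.

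An exact permutation test without a model, two-sided on log2(CPM + 0.5), gave p = 0.005 for colon against ileum over both genotypes for Slc10a2, Fabp6, Slc51a, Slc51b, Fgf15 and Abcc2, which is the smallest p that its 400 arrangements can give, and a Benjamini-Hochberg value of 0.04 over the 48 tests made on members. For those 6 every colonic library was below every ileal library, as was the case for 17% of all genes tested. Fgf15 was among the genes tested through its ileal counts alone, so its separation adds no support. Nr1h4 gave an exact p of 0.065 and Nr0b2 0.12 in the same permutation test. Within 1 genotype, 3 libraries against 3 cannot give less than 0.1.

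The comparison of KO with control mice asked whether loss of epithelial Slc39a8 goes with a change in bile acid genes. None of the 7 tested members passed the threshold over both tissues, in ileum, in colon, or in the difference of the effects, and 0% of all genes did in any of these comparisons (edgeR, adjusted p under 0.1). The deleted gene Slc39a8 was not called either, at -1.13 ± 0.17 over both tissues (edgeR adjusted p = 0.382). The lack of calls therefore does not show that the members were unchanged. At an unadjusted p under 0.05, edgeR gave 1 member over both tissues (3.87% of all genes), 0 in ileum (1.52%), 2 in colon (2.33%) and 1 for the difference (1.02%). With DESeq2 4 genes and with limma-voom 1 gene passed over both tissues, 2 and 1 in ileum, 0 and 0 in colon and 1 and 0 for the difference, and no member was among them. The members' median log2 fold change was 0.13 over both tissues, -0.22 in ileum and 0.29 in colon, against 0.00 over all genes in each. The median over both tissues was the fitted value of Fgf15 itself (0.13 ± 0.53), which had 0 counts in control colon. Fgf15 also entered the colonic median, so neither is read as a shift of the members.

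**Figure D3:**
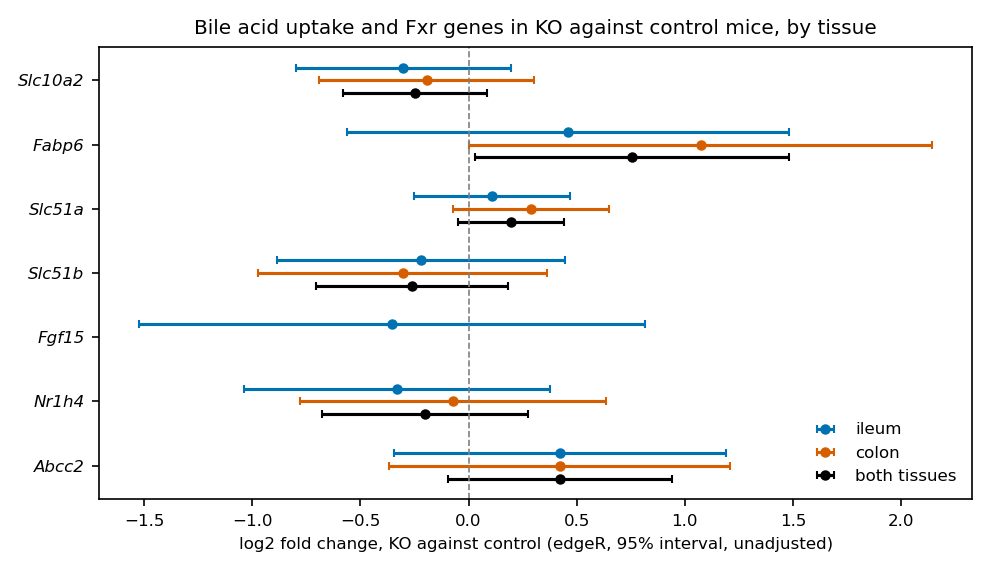
Log2 fold change of each tested gene in KO against control mice with its unadjusted 95% interval (edgeR), in ileum (blue), in colon (orange) and over both tissues (black). Fgf15 is shown for ileum only, since control colon had 0 counts. The intervals cross 0 except those of Fabp6 over both tissues (0.03 to 1.48) and in colon, where the interval starts at 0.002.

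Fabp6 was the member with the largest fitted value over both tissues. Its log2 fold change was 0.75 ± 0.34 over both tissues (unadjusted p = 0.043, edgeR adjusted p = 0.998), 0.46 ± 0.47 in ileum (unadjusted p = 0.345, edgeR adjusted p = 1) and 1.07 ± 0.49 in colon (unadjusted p = 0.0496, edgeR adjusted p = 1). The colonic value rested on colon KO replicate 3: without it the value was -0.0035 in colon and 0.26 over both tissues. In ileum the 3 KO libraries, at 5467 to 7109.7 CPM, all lay above the 3 control libraries, at 3362 to 5346 CPM, a mean of 6030.3 ± 935 against 4385 ± 993 (SD, n = 3 each). Of all genes, 2.13% had KO ileum wholly above control ileum and 3.7% were apart in either direction. An exact permutation test gave 0.1, which 3 libraries against 3 cannot go below, and a Benjamini-Hochberg value of 0.218. Fabp6 was the only member whose genotype groups did not overlap in ileum, and no member was apart in colon, where 12.8% of all genes were.

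The remaining members had log2 fold changes in ileum of -0.30 ± 0.23 for Slc10a2 (95% interval -0.80 to 0.20), 0.11 ± 0.16 for Slc51a (-0.25 to 0.47), -0.22 ± 0.30 for Slc51b (-0.88 to 0.45), -0.35 ± 0.52 for Fgf15 (-1.52 to 0.82), -0.33 ± 0.32 for Nr1h4 (-1.04 to 0.38) and 0.42 ± 0.35 for Abcc2 (-0.35 to 1.19). In colon they were -0.19 ± 0.23 for Slc10a2 (-0.69 to 0.30), 0.29 ± 0.17 for Slc51a (-0.07 to 0.65), -0.31 ± 0.30 for Slc51b (-0.97 to 0.36), -0.07 ± 0.32 for Nr1h4 (-0.78 to 0.63) and 0.42 ± 0.36 for Abcc2 (-0.37 to 1.21). Slc51a in ileum had the narrowest of these intervals. Fgf15 passed the unadjusted threshold in colon (unadjusted p = 0.0167, edgeR adjusted p = 1) and for the difference between tissues (unadjusted p = 0.0152, edgeR adjusted p = 1) on 8 counts against 0, of which 7 were from colon KO replicate 3, the same library that was high in Fabp6.

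Ratios of 2 members within a library do not depend on library scaling, and 5 were taken after the levels had been seen, giving 30 exact permutation tests. Slc51b to Slc51a, the balance of the exporter's subunits per kilobase, was 4.09, 3.76 and 4.60 in control colon and 2.53, 2.95 and 2.71 in KO colon. The groups did not overlap (exact permutation p = 0.1, the smallest possible, Benjamini-Hochberg value 0.188). Of single genes, 12.8% were apart by genotype in colon, and no such share was taken over ratios. In ileum the ratio was 4.42, 3.10 and 1.94 in control and 1.54, 2.99 and 2.88 in KO mice, and the groups overlapped (exact permutation p = 0.5). Over both tissues the log2 difference was -0.47 (exact permutation p = 0.085, Benjamini-Hochberg value 0.188). Fabp6 to Slc10a2 was 8.88, 21.1 and 20.5 in control ileum and 25.4, 22.2 and 31.5 in KO ileum, again apart (exact permutation p = 0.1). Of single genes, 3.7% were apart by genotype in ileum. The log2 difference of Fabp6 to Slc10a2 over both tissues was 0.82 (exact permutation p = 0.04, Benjamini-Hochberg value 0.188). In colon that ratio was 0.0617 to 0.0688 in 5 libraries and 0.425 in colon KO replicate 3. Slc51a to Slc10a2 was higher in KO by 0.44 on the log2 scale over both tissues (exact permutation p = 0.02, Benjamini-Hochberg value 0.12), with overlap in each tissue. None of the genotype differences in a ratio passed 0.1 after adjustment. Between tissues, Fabp6 to Slc10a2 had a log2 difference of colon minus ileum of -7.85 over both genotypes and was below every ileal value in all 6 colonic libraries (exact permutation p = 0.005, the smallest possible, Benjamini-Hochberg value 0.05). This separation follows from the levels of Fabp6 and Slc10a2 already given, so its p adds no evidence to them.

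**Figure D4:**
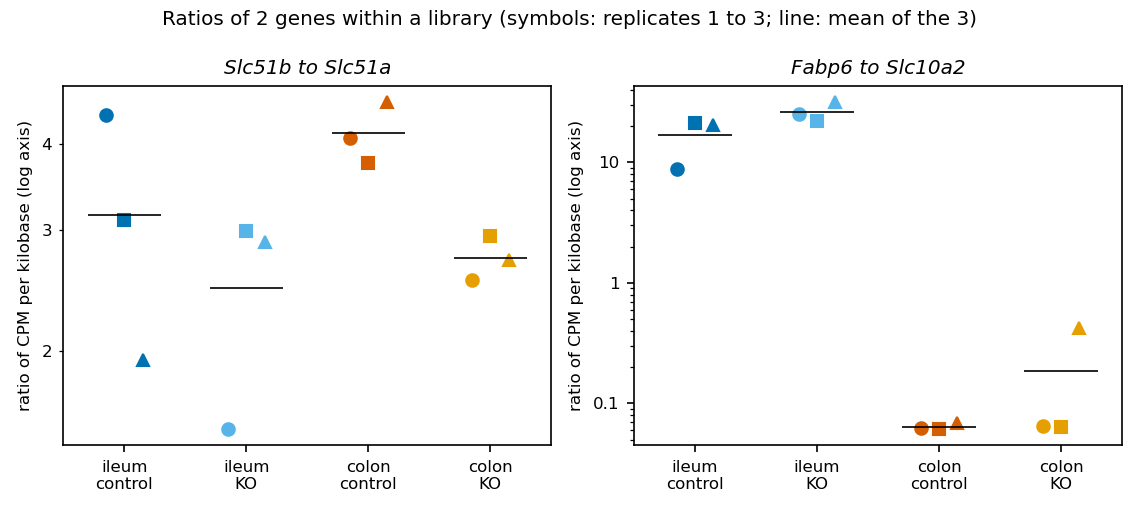
Ratio of CPM per kilobase of Slc51b to Slc51a (left) and of Fabp6 to Slc10a2 (right) in each library, on log axes, by group, with lines at the mean of 3. In colon the Slc51b to Slc51a ratio lies at 3.76 to 4.60 in control and 2.53 to 2.95 in KO mice, and in ileum both groups spread from below 2 to near 3 or above.

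The members differed in their spread among the ileal libraries. The highest ileal library exceeded the lowest 2.92 times for Nr1h4, 2.49 times for Abcc2, 2.42 times for Slc51b, 2.11 times for Fabp6, 2.04 times for Fgf15, 1.74 times for Slc10a2 and 1.23 times for Slc51a. The 2 ileal libraries low in smooth muscle markers, 1 of each genotype, lay below the other 4 for Slc10a2, Slc51b and Nr1h4 and above them for Abcc2, while 27.2% of all genes tested lay below and 23.2% above. Slc51b was at 443 and 365 CPM there against 683 to 883 CPM in the other 4, and Nr1h4 at 199 and 175 against 307 to 509 CPM. Abcc2 was at 246 and 285 against 114 to 240.0 CPM. For Slc10a2 the gap was narrow, at 1883 and 1884 against 1955 to 3282 CPM. Fabp6, Slc51a and Fgf15 were not apart, and Nr0b2 had 5 and 4 counts there and 0 to 2 in the other 4. These libraries also held less of the epithelium markers, 18919 and 19936 against 23127 to 25299 CPM in sum, and less of the plasma cell markers, 257 and 250.3 against 730 to 1895 CPM. Their small intestine markers summed to 6843 and 5456 against 2282 to 2776 CPM. Most of that was Lyz1, whose highest levels were 6360 CPM in control and 4742 CPM in KO ileum. Apoa4, of the same list, ran from 64.8 to 181 CPM in control and from 65.5 to 301 CPM in KO ileum. It was not raised in both of these libraries. Of the distal markers, Cubn was at 1151 and 1079 CPM against 346 to 506, and Amn at 155 and 209.7 CPM against 136 to 159. The part of tissue makeup in these values was not tested.

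**Figure D5:**
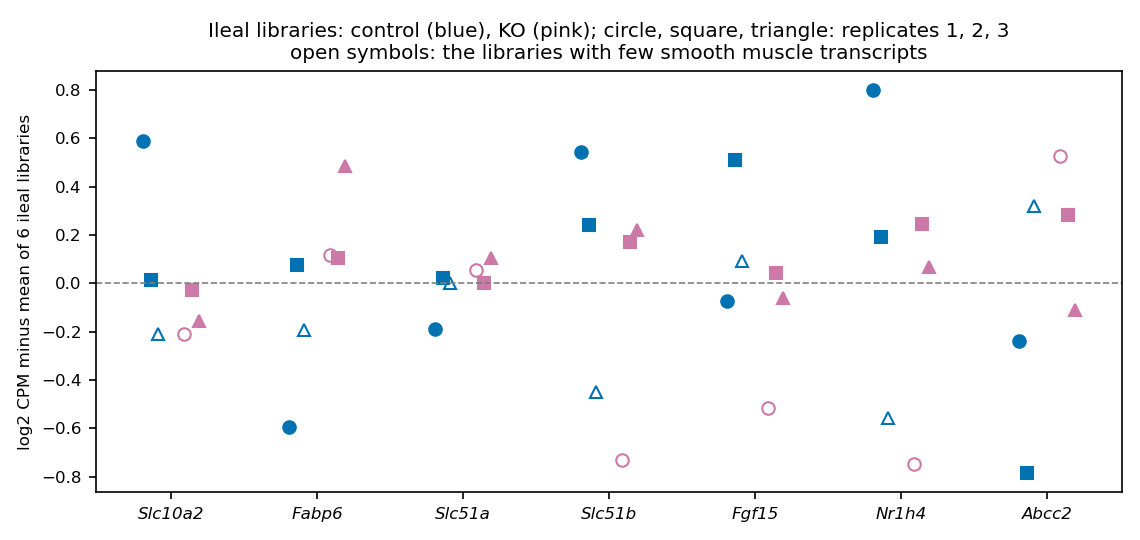
Log2 CPM of each tested gene in the 6 ileal libraries minus the gene's mean over them, for control (blue) and KO (pink) mice. Open symbols are the libraries with few smooth muscle transcripts, which sit lowest for Slc10a2, Slc51b and Nr1h4 and highest for Abcc2. Filled pink symbols show the remaining KO libraries, with Fabp6 of KO replicate 3 highest.

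Across the 12 libraries, likeness to another gene was measured as the root mean square difference of log2 CPM after each gene was centred on its own mean, given here as a description. Nearest to Slc10a2 were Tango2 (0.16), Tmem41b (0.16) and Txndc17 (0.17), against a median of 0.9 over all genes. Nearest to Fabp6 were Anpep (0.51), an apical aminopeptidase, Slc6a19 (0.60), a neutral amino acid transporter, and Defa34 (0.62), a Paneth cell defensin, against 4.73 over all genes. Slc51a was closest to Sfxn1 (0.20), Creb3l3 (0.21) and Gpd1 (0.21), and Slc51b to Pls1 (0.23), Pnp (0.24) and Cd302 (0.25). Nr1h4 was closest to Mdh1 (0.09), Pomp (0.12) and Rars (0.13), Abcc2 to Tac2 (0.39), Ceacam18 (0.40) and Cyp4v3 (0.40), and Fgf15 to Ms4a18 (0.52), Ace (0.55) and Dpp4 (0.55). No member was among the 3 nearest of another, and the closest members were Slc51a and Slc51b, at 0.45.

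Other genes of the pathway were taken from 5 lists. Of all genes, 16.2% were called higher and 19.6% lower in colon in control, and 17.1% and 20% in KO mice. Of 9 other bile acid carriers and transporters, 4 were tested. Abcc3, a basolateral export pump, was called higher in colon in both genotypes (log2 fold change 2.34 ± 0.32 in control, edgeR adjusted p = 0.000274), with 68.4 ± 24.7 CPM in control ileum and 344.9 ± 21.6 in control colon (SD, n = 3). Slco2b1, an uptake carrier, was called lower in colon in KO mice (-0.83 ± 0.29, edgeR adjusted p = 0.0497) and had -0.67 ± 0.29 in control (edgeR adjusted p = 0.109). The list's median was -0.36 in control and -0.11 in KO mice. Of 16 nuclear receptors and transcription factors, 14 were tested, and 2 were higher and 5 lower in colon in each genotype, with medians of -0.11 and -0.37. In control those of largest change were Nr1i3, a xenobiotic receptor (-1.86 ± 0.35), Nr1h3, the oxysterol receptor Lxrα (-1.69 ± 0.16), Gata6 (-1.02 ± 0.11) and Vdr, the vitamin D receptor (0.94 ± 0.15). Rxra, the partner of Fxr, was at -0.49 ± 0.17 in control (edgeR adjusted p = 0.0513) and -0.56 ± 0.17 in KO mice (edgeR adjusted p = 0.0285).

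Of 4 genes for membrane receptors and the Fgf15 axis, 3 were tested. Malrd1 (Diet1), which affects Fgf15 output from enterocytes, was called lower in colon in both genotypes (-3.39 ± 0.22 in control, edgeR adjusted p = 8.21e-07), with 358 ± 62.3 CPM in control ileum and 34.3 ± 6.71 in control colon (SD, n = 3). Fgfr4, the Fgf15 receptor, was called higher in colon in KO mice (1.03 ± 0.42, edgeR adjusted p = 0.0844), at 2.09 ± 0.533 CPM in KO ileum and 4.25 ± 0.539 in KO colon, and had 0.25 ± 0.41 in control mice (edgeR adjusted p = 0.681). Of 10 genes of bile acid synthesis and conjugation, 6 were tested and 3 were lower in colon in each genotype: Baat, which conjugates bile acids (-4.21 ± 0.34 in control), and the peroxisomal side-chain enzymes Acox2 (-2.47 ± 0.29) and Amacr (-0.74 ± 0.23). Cyp7a1, the first enzyme of synthesis in liver, had 0 CPM in every library. Of 4 lipid-binding paralogs of Fabp6, 3 were tested and all were lower in colon, Fabp2 by -2.76 ± 0.30, Rbp2 by -2.84 ± 0.26 and Fabp1 by -2.79 ± 0.62 in control. The share of all genes called lower in colon was 19.6% in control and 20% in KO mice. No gene of these lists was called between genotypes. Among them only Fabp2, an intestinal fatty acid carrier, passed 0.05 without adjustment, over both tissues (-0.52 ± 0.19, unadjusted p = 0.0188, edgeR adjusted p = 0.998) and in colon (-0.65 ± 0.28, unadjusted p = 0.039, edgeR adjusted p = 1).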

How the data were processed

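Total RNA of ileal or colonic mucosa was sequenced from oligo-dT primed cDNA, and the submitters' processing notes name STAR and mm10. The deposited table holds expected counts per gene, made by the authors and not normalized, with 93.7% of values whole. The study's reporting summary names unique alignments, removal of duplicates and FeatureCounts, and the tool that gave expected counts was not given in the sources used here. Counts were rounded, 92 spike-in lines (0 counts) were left out, and genes were filtered with filterByExpr over the 4 groups. Symbols, positions and exon lengths came from GENCODE M21 (GRCm38), which paired 53620 of 53715 identifiers. CPM used TMM-scaled library sizes. Tests were edgeR 4.0.16 quasi-likelihood fits on R 4.3.3 with Benjamini-Hochberg adjustment over all 16558 genes and a threshold of 0.1. A 4-group model gave every comparison except KO against control over both tissues, which had tissue as an additive term. SE values were taken from the F statistics. Exact permutation tests (scipy 1.17.1) used a pseudocount of 0.5 and likeness a prior count of 2. Poisson intervals and floors cover counting error only. DESeq2 1.42.0, limma 3.58.1 and other scalings, filters and library subsets were alternatives. Libraries of the same number were not treated as pairs, since pairing was not stated in the sources used here. Scripts were tested on simulated data. The members and gene lists were chosen with earlier results of these data known. All 8 members are named whatever their values, and of each list at most 4 called genes, those of largest change.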

Additional observations from a re-analysis of the deposited data

How the results depend on the processing

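Calls of members stood in every alternative except those given here. With the mean level of the epithelium markers as a term, 3 of 7 members were called in KO mice for colon against ileum and 4 in control mice, in place of 6. Its values did not overlap between tissues. It turned Slc51b to 0.30 in control and 0.56 in KO mice, Nr1h4 to 1.80 and 2.32, and Nr1h4 of KO against control in colon to 0.017. Nr1h4 in colon against ileum was called in 6 of 27 alternatives in control mice, among them DESeq2 (-0.73, DESeq2 adjusted p = 0.0856), and in 2 of 27 in KO mice. Leaving out each library in turn, the values of KO against control ran from -0.26 to 0.38 for Fgf15 over both tissues, -0.45 to 0.0305 for Slc51b in ileum, -0.61 to 0.0518 for Nr1h4 in ileum, -0.0035 to 1.40 for Fabp6 in colon and -0.17 to 0.11 for Nr1h4 in colon. Other turns of sign were Fgf15 over both tissues with limma-voom (-0.22) and with a muscle term (-0.0865) and Nr1h4 in colon with library size only (0.0429), and the cause was not tested.

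Library size only and upper-quartile factors raised the median log2 fold change of colon against ileum over all genes to 0.238 and 0.116 in control and 0.285 and 0.145 in KO mice, and the share of calls that were lower fell from 54.7% to 33.6% and 44.8% in control and from 53.9% to 29.2% and 41.7% in KO mice. With the epithelium term, 2968 and 2667 genes were called in colon against ileum, in place of 5940 and 6149. For KO against control over both tissues and in ileum, where edgeR called 0 genes, 5 and 3 were called without both libraries low in muscle transcripts and 3 and 1 with a muscle term. Leaving out ileum control replicate 3 or ileum KO replicate 1 gave 1 over both tissues, and the latter 1 in ileum. A fit of colonic libraries alone called 1 in colon. Deviations of same-numbered ileal and colonic libraries had correlations of -0.053, 0.165 and -0.08 in control and 0.192, 0.051 and 0.251 in KO mice. Between libraries of different numbers they were -0.183 to 0.161 in control and -0.207 to 0.054 in KO mice. These values do not settle whether the numbers pair the libraries, and the numbers were not taken as pairs. Same-numbered control and KO ileum, which are from different mice, had correlations of -0.55, 0.404 and -0.694. With the replicate block, 6 members were called for colon against ileum in each genotype and 0 for every genotype comparison, and 5333 and 5558 genes were called between tissues. An exclusion of ileum KO replicate 2 with both libraries low in muscle transcripts was chosen after seeing the data and gave 6 members called in KO and 7 in control mice, and 6 genes over both tissues by genotype. Depth limits Nr0b2, with 0 to 5 counts per library, and Fgf15 in colon. The number of mice, 3 per group, limits the genotype intervals.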
